A study of Saccharomyces cerevisiae with 24 samples.

Results

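The RM allele of each of 4442 orthologous gene pairs was compared between a diploid hybrid cell and a haploid RM cell, using only the reads that the deposited counts assign to RM. All 4442 gene pairs of the series and all 24 of its libraries were used. Of the gene pairs, 2816 had a mean of at least 5 RM reads per library in at least 1 group and were tested, and 1626 did not reach that level. RM is a strain line derived from a vineyard isolate of budding yeast, and BY is the common laboratory line.

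The hybrid group held 12 libraries from WL201, an a/alpha diploid made from BY4741 and RM11-1alpha. The co-culture group held 12 libraries from flasks in which haploid BY4741 and haploid RM11-1a cells grew together, each of mating type a. The RM parent of the cross and the RM strain in the co-culture are therefore not the same strain by their labels, and the hybrid was represented by a single strain. Both groups were grown in 4 technical-replicate cultures from an optical density of 0.1 to 1.0 at 30 °C and 250 rpm. RNA came from hot acid phenol extraction, was selected on oligo-dT beads and was reverse transcribed from oligo-dT primers. No further treatment is named for either group, and the labels name no auxotrophic markers.

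The hybrid libraries held 82435 to 115613 RM reads (1270658 in all, 49.69% of the reads assigned to an allele), and the co-culture libraries 109464 to 124843 (1412335 in all, 54.81%). The median gene pair had 92 RM reads summed over the hybrid group and 88.5 summed over the co-culture group. No RM read was seen in 78 gene pairs in the hybrid group, against 54 in the co-culture group. Libraries of a group that agreed within sampling noise were summed, which left 8 summed replicates in the hybrid, against 4 in the co-culture. Hybrid libraries differed more among themselves than co-culture libraries did. The chi-square per degree of freedom had a median of 1.123 (0.996 to 2.124) over 66 pairs of hybrid libraries and 1.07 (0.981 to 1.225) over 66 pairs of co-culture libraries. The 8 hybrid replicates outnumber the 4 cultures, so some of them must share a culture, and p-values measure only a spread between libraries that may be technical.

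Levels are given in RPM, the RM reads of a gene scaled to a total of 1000000 RM reads in the same replicate. The number of RM genomes or RM cells in a flask thus drops out, and a level says what share of RM messages came from a gene. Reads were counted only over sites that differ between the strains, so a level also depends on how many such sites a gene has, and levels are compared between groups and not between genes. In these bulk samples, a change in RNA per cell and a change in the number of cells that make it cannot be told apart.

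A yeast cell of mating type a or alpha is haploid and ready to mate, whereas an a/alpha diploid is not. In the diploid, the a1 and alpha2 proteins together shut off a set of haploid genes, and alpha2 with Mcm1 shuts off the genes particular to a cells. An allele that moves into a hybrid keeps its own promoter but meets the regulators of both parents in a shared nucleus. A change of RM reads between the groups therefore compares the same RM alleles in a different cell, with ploidy, mating type, the RM strain and the presence of a BY genome all differing at once. These differences cannot be told apart in the RM reads alone. The BY reads of the same libraries show how the other allele changed.

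Of 2816 tested genes, 1497 (53.2%) differed in RM reads between hybrid and co-culture by edgeR's quasi-likelihood test with Benjamini-Hochberg adjustment at 0.05. RM reads were higher in the hybrid for 960 genes (34.1%) and lower for 537 (19.1%). Counts of called list members below are to be read beside these shares. Genes that passed the read minimum through 1 group alone are mostly higher there, so such counts only describe the lists. Most changes were small. The median size of a called change was 0.60 on the log2 scale, and 251 genes changed by over 2-fold, 182 of them higher and 69 lower in the hybrid. The 8 hybrid and 4 co-culture levels did not overlap for 707 tested genes (25.1%), and 792 of the called genes had levels that overlapped. The split between higher and lower depended on the scaling. The median tested gene stood at 0.16 (log2) with RM totals as the scale. TMM scaling lowered the median by 0.14 and called 654 genes higher and 714 lower. Of the genes called with RM totals, 1191 were also called with TMM, all in the same direction, and 306 of the higher calls were lost.

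Of the 8 largest falls under the naming rule given below, all but those of LYS2 and PCK1 were in genes of mating. STE2, the receptor for the alpha pheromone, had 19.2, 64.4 and 82.7 RPM (lowest, median and highest of 8 replicates) in the hybrid, against 8267, 8437, 7823 and 8269 in the 4 co-culture replicates. No hybrid replicate came near any co-culture replicate, and the mean was 141-fold lower (log2 fold -7.20, SE 0.08, edgeR adjusted p = 5.69e-98). SEs of log2 folds were derived from the F of the test, and for large changes with few reads they understate the counting error. The stretch upstream of STE2 is shown because it holds the operator that Mcm1 and alpha2 bind together in a-specific genes, here searched as CATGT and ACATG separated by 21 bases. It is the only such match among the 5 a-specific genes in the files, and 3 of 6020 protein-coding genes have one within 300 bases before the start codon. The 100 bases run 5′ to 3′ from base 259 to base 160 before the start codon, on the strand of the gene, with the operator in capitals. The sequence is RefSeq's R64 assembly, a genome of the BY lineage, and RM's own bases were not used here.
STE2: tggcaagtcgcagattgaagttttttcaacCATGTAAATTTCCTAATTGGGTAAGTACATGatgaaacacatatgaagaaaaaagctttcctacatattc

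The other a-specific genes moved the same way. STE6, the exporter of the a pheromone, had 55.1, 84.1 and 119 RPM in the hybrid, against 1928, 1895, 1844 and 1892 in the co-culture (log2 fold -4.56, SE 0.10). BAR1, a secreted protease of the alpha pheromone, had 0, 8.97 and 19.6 in the hybrid, against 871, 966, 1009 and 898 in the co-culture (log2 fold -6.83, SE 0.18). For both genes the groups were far apart, and some hybrid replicates had no BAR1 read. MFA1, which encodes the a pheromone, had 2 RM reads in all hybrid libraries and 228 in all co-culture libraries, lower by a depth-scaled ratio of 102.6 (exact 95% interval 28.1 to 852, counting error only). ASG7, another a-specific gene, had 15 RM reads in the hybrid, against 34 in the co-culture, and was too low to test. All 4 tested a-specific genes fell, against 19.1% of all tested genes. BAR1 and MFA1 passed the minimum only through their co-culture reads, so the count only describes the list.

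Haploid-specific genes, which the a1 and alpha2 proteins shut off in diploids, were lower as well. FUS3, the last kinase of pheromone signalling, had no RM read in the hybrid and 195, 182, 174 and 169 RPM in the co-culture, at least 75.6-fold lower against a floor of 3 reads over the group. GPA1, the G-protein alpha subunit of the pheromone response, had 0, 9.34 and 20.4 in the hybrid, against 195, 291, 269.8 and 287 in the co-culture (log2 fold -4.47, SE 0.24). STE18, the gamma subunit of the same G protein, had no RM read in the hybrid, against 32 in the co-culture, which is at least 9.60-fold lower, and was not tested. The signalling genes were thus at or near 0 in the hybrid. FAR1, the pheromone-triggered inhibitor of the cell cycle, kept 109.8, 155 and 238 RPM in the hybrid, against 976, 1128, 1024 and 1037 in the co-culture (log2 fold -2.79, SE 0.10). SST2, which damps the pheromone signal, had 19.2, 67.6 and 92.2 in the hybrid, against 391, 369.7, 334 and 367 in the co-culture (log2 fold -2.49, SE 0.15). Both stayed measurable in every hybrid replicate, and neither overlapped the co-culture. TEC1, a regulator of filamentous growth, had 13.4, 24 and 39.7 in the hybrid, against 187, 167, 189 and 160.1 in the co-culture (log2 fold -2.91, SE 0.22). NEJ1, an end-joining protein that diploids shut off, had 9.93, 38.7 and 53.8 in the hybrid, against 252, 186, 162 and 160.1 in the co-culture (log2 fold -2.36, SE 0.21). The element TACATCA, searched for the a1 protein, lies within 300 bases before 1 of 10 haploid-specific genes, on either strand, and 5.116% of all genes.

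AMN1, an antagonist of mitotic exit, fell least among the 7 tested haploid-specific genes. It had 108, 174 and 259 RPM in the hybrid, against 277, 328, 302 and 291 in the co-culture (log2 fold -0.77, SE 0.12, edgeR adjusted p = 7.97e-08). Its BY allele fell by 1.83 (SE 0.10), and the RM change minus the BY change was 1.07 (SE 0.16, edgeR adjusted p = 1.26e-09). All 7 tested members of the list fell, of 10 in the files, and of these FUS3, GPA1, TEC1 and NEJ1 passed the minimum only through the co-culture. Genes of alpha cells were near the floor in both groups. STE3, the a pheromone receptor, had 3 RM reads in the hybrid, against 1 in the co-culture, and SAG1, the alpha agglutinin, had 15 in the hybrid, against 12 in the co-culture. AFB1, which blocks the a pheromone and is listed with the alpha-specific genes, was lower in the hybrid. It had 15 RM reads in the hybrid, against 70 in the co-culture (log2 fold -2.03, SE 0.38). AFB1 passed the read minimum only through its co-culture reads.

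**Figure D1:**
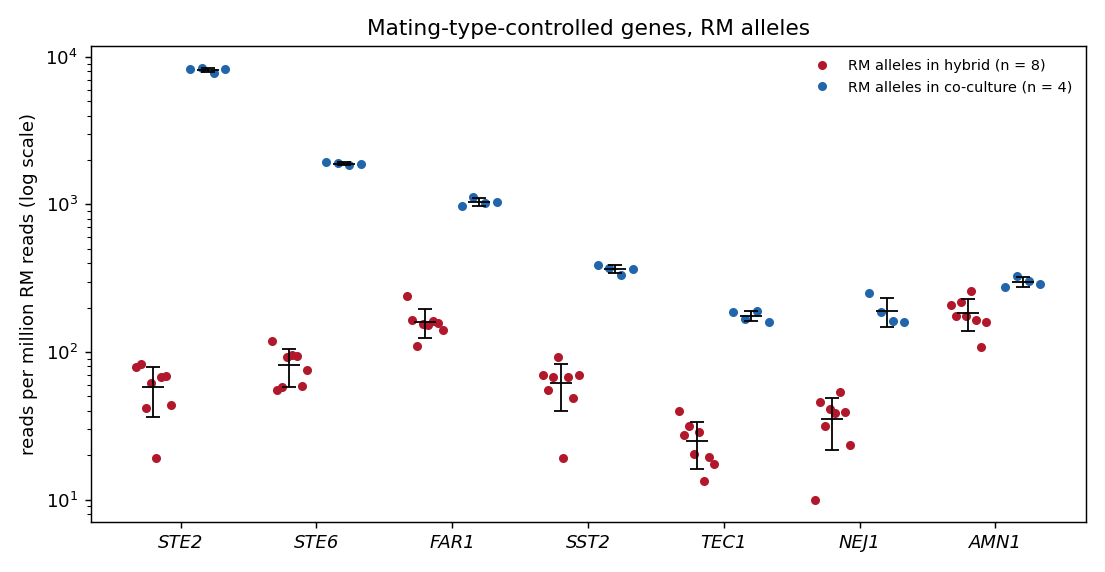
RM reads scaled to RPM (log axis) of 7 genes under mating-type control, with the 8 hybrid replicates in red and the 4 co-culture replicates in blue. Points are summed replicates and bars are the mean ± SD. STE2 sits between 19.2 and 82.7 in the hybrid and between 7823 and 8437 in the co-culture, whereas AMN1 sits between 108 and 259 and between 277 and 328.

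Among 14 tested genes of pheromone signalling and mating outside that list, 8 fell, 2 rose and 4 did not pass. Of all tested genes, 19.1% fell and 34.1% rose. PRM5 passed the read minimum only through its co-culture reads, so the count only describes the list. AGA1, the anchor of the mating agglutinin, fell by 1.74 on the log2 scale (SE 0.15), with 55.1, 81.3 and 108 RPM in the hybrid, against 326, 242, 264 and 308 in the co-culture. PRM5, a pheromone-responsive membrane protein, fell by 2.10 (SE 0.35), and CDC42, the polarity GTPase, by 0.77 (SE 0.11). Of the kinases that relay the signal, STE11 rose by 0.61, and STE7 was at -0.11 and did not pass. STE11 and STE50, the 2 higher calls, were not both called higher with TMM scaling, which left 1, and neither was after removing a trend of the log2 folds with the share of A in the coding sequence, called the A-share trend. The Ste12 element TGAAACA lies within 300 bases before the start codon, on either strand, in 13 of 27 of these genes and in 7.176% of all protein-coding genes.

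LYS2, an enzyme of lysine synthesis, had RM reads almost only in the co-culture, for a reason that was not tested. It had 2 RM reads in all 12 hybrid libraries and 590 in the co-culture, lower by a depth-scaled ratio of 265.4 (exact 95% interval 73.2 to 2197). The BY allele of LYS2 had 695 reads in the hybrid, against 586 in the co-culture, a change of 0.11 (SE 0.08). Other genes of lysine synthesis showed no such loss, since LYS4, LYS5 and LYS9 stood between -0.25 and 0.17 and did not pass. MET17, an enzyme of methionine synthesis that BY4741 lacks, checks the assignment of reads. It had 149 RM reads in the hybrid, against 206 in the co-culture, with 0 BY reads in either. Its RM change of -0.32 (SE 0.16) did not pass (edgeR adjusted p = 0.0851), but it did with TMM scaling (log2 fold -0.46, edgeR adjusted p = 0.0113).

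Some of the largest rises were in genes that part the daughter cell from its mother. These encode enzymes that digest the septum and are made in the daughter after division. AMN1 is known to carry a functional difference between BY and RM that bears on this step. DSE1, a daughter-specific gene, had 172, 216 and 258 RPM in the hybrid, against 8.14, 22.4, 10.6 and 4.21 in the co-culture (log2 fold 3.85, SE 0.24, edgeR adjusted p = 9.06e-29). DSE2, a secreted daughter-specific protein, had 318, 516 and 587 in the hybrid, against 40.7, 43, 29.8 and 42.1 in the co-culture (log2 fold 3.69, SE 0.16). CTS1, the chitinase of the septum, had 783, 936 and 1131 in the hybrid, against 97.6, 127, 149 and 152 in the co-culture (log2 fold 2.78, SE 0.10). All 8 hybrid replicates stood above all 4 co-culture replicates for each of these genes. SCW11, a glucanase-like wall protein, had 228, 290.2 and 323 in the hybrid, against 57, 72.2, 63.7 and 29.5 in the co-culture (log2 fold 2.21, SE 0.16).

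The BY alleles of the same genes went the other way in the same libraries. DSE1 had 172 ± 35.8 RPM for its BY allele, scaled to BY reads, in the hybrid, against 404 ± 12.1 in the co-culture (mean ± SD, n = 8 and n = 4), beside RM means in the same order of 213 ± 30.4 and 11.3 ± 7.81. DSE2 had 465 ± 43.9 BY RPM in the hybrid, against 1073 ± 14.1 in the co-culture, beside RM means in the same order of 486 ± 85.8 and 38.9 ± 6.17. CTS1 had 688 ± 87.1 in the hybrid, against 2065 ± 64.7 in the co-culture for BY, beside 942 ± 118 and 131 ± 25 for RM. In the co-culture the RM level was far below the BY level of the same gene, and in the hybrid the levels of both alleles lay close together. The RM change exceeded the BY change by 5.06 for DSE1 (SE 0.26), by 4.91 for DSE2 (SE 0.16), by 4.42 for CTS1 (SE 0.11) and by 2.70 for SCW11 (SE 0.19). For CTS1 the edgeR adjusted p of that difference was 1.57e-145.

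Of 16 tested genes of daughter separation, 9 rose, 1 fell and 6 did not pass, where 34.1% of all tested genes rose and 19.1% fell. DSE1, DSE2 and DSE4 passed the read minimum only through their hybrid reads, so the count only describes the list. Of 15 tested BY alleles 1 rose and 9 fell. The signed difference, the log2 fold of RM minus that of BY, passed as positive in 9 of 18 tested gene pairs and as negative in none, against 10.9% and 7.36% of all pairs. TMM scaling called 9 higher and 2 lower. The endoglucanase gene DSE4 rose by 1.46 while its BY allele stood at -0.70, and DSE3 rose by 1.52. EGT2, another wall glucanase, rose by only 0.48. CHS1, a chitin synthase that repairs the septum, fell by 0.89 in RM with -0.75 in BY. SUN4, a septum glucanase-like protein, stood at -0.02 in RM, which did not pass, and in BY at -1.54. CBK1, a kinase needed for daughter separation, rose by 0.57 in RM with 0.55 in BY.

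**Figure D2:**
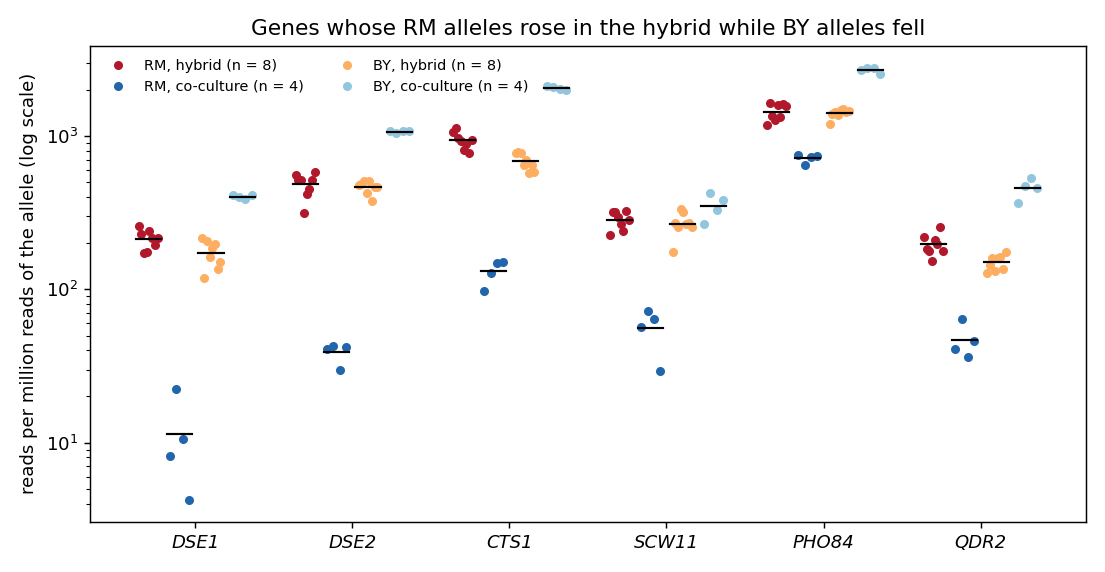
RPM of each allele (log axis) for 6 genes, with RM in the hybrid (red, n = 8), RM in the co-culture (blue, n = 4), BY in the hybrid (orange, n = 8) and BY in the co-culture (light blue, n = 4). Points are summed replicates and lines are means. For DSE2 the RM means are 486 and 38.9 and the BY means 465 and 1073, and in all 6 genes shown the mean levels of the alleles lie closer together in the hybrid than in the co-culture.

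Most tested genes of respiration were called lower in RM, and most were called higher in BY. The respiratory chain passes electrons from dehydrogenases through cytochrome c to oxygen and drives ATP synthase. Hap1, a heme-dependent activator, turns on part of it and part of sterol synthesis, and BY strains are known to carry a transposon insertion in HAP1 that RM lacks. Of 29 tested respiratory genes, 17 fell, 4 rose and 8 did not pass in RM, where 19.1% of all tested genes fell and 34.1% rose. The median log2 fold was -0.35 against 0.16 for all tested genes. Of the 29 tested BY alleles, 21 rose and 0 fell, where the BY count rests on the same edgeR test. The RM minus BY difference passed as negative in 25 of 31 tested pairs and as positive in 1, against 7.36% and 10.9% of all pairs. TMM scaling gave 19 lower and 3 higher. After removal of the A-share trend, 13 were lower and 1 higher.

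CYT1, cytochrome c1 of complex III, had 236, 289 and 356 RPM in the hybrid, against 391, 435, 444 and 459 in the co-culture (log2 fold -0.51, SE 0.10). Its BY allele averaged 315 ± 35.9 in the hybrid, against 104 ± 22.8 in the co-culture, so the RM change minus the BY change was -2.02 (SE 0.17, edgeR adjusted p = 3.3e-27). RIP1, the Rieske protein of the same complex, changed by -0.37 in RM (SE 0.11) and 1.67 in BY (SE 0.15). The RM levels of the groups overlapped for RIP1 and not for CYT1. With the A-share trend removed, neither RM fall passed, at -0.23 for CYT1 and -0.04 for RIP1. In CYC1, cytochrome c, both alleles rose. It had 371, 415 and 489 RPM in the hybrid, against 236, 319.9, 272 and 367 in the co-culture (log2 fold 0.46, SE 0.10), and the BY change was 2.81 (SE 0.14). The RM rise did not pass with the A-share trend removed (0.16). COR1, a core subunit of complex III, fell by 0.51 in RM (SE 0.06), with 927 ± 46.2 RPM in the hybrid, against 1350 ± 99.5 in the co-culture. The ATP synthase genes ATP1 and ATP2 fell by 0.55 (SE 0.07) and 0.48 (SE 0.06). With the A-share trend removed, ATP1 did not pass (log2 fold -0.16, edgeR adjusted p = 0.0584). The succinate dehydrogenase genes SDH2, SDH3 and SDH4 fell by 0.56, 0.49 and 0.70, whereas SDH1 was at -0.18 and did not pass.

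Targets of Hap1 split in RM. Of 12 tested, 7 fell and 5 rose, against 19.1% and 34.1% of all tested genes, while 9 BY alleles rose and 1 fell. The RM minus BY difference passed as negative in 10 of 12 and as positive in none, against 7.36% and 10.9% of all pairs. The RM falls were in ERG2, ERG3, ERG11, HMG1 and NCP1 of sterol synthesis and in CYT1 and COR1, and the rises were in CYC1, QCR2, ERG5, MOT3 and YHB1. YHB1, the flavohemoglobin that detoxifies nitric oxide, had 3684, 3974 and 4127 RPM in the hybrid, against 1920, 2327, 2354 and 2267 in the co-culture (log2 fold 0.80, SE 0.05), and its BY allele rose by 1.33. HAP1 itself had 205 RM reads in the hybrid, against 213 in the co-culture (log2 fold 0.11, not passed) and a BY change of -0.67. Without the A-share trend, 3 targets were called higher and 4 lower. No exact match to the Hap1 site was found within 300 bases before any of 15 targets, on either strand, and 0.1329% of all protein-coding genes held one.

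Sterol synthesis showed a similar split between alleles. Of 19 tested genes 10 fell, 3 rose and 6 did not pass in RM, where 19.1% of all tested genes fell and 34.1% rose. In BY 10 rose and 3 fell of 18. The RM minus BY difference passed as negative in 10 of 19 and as positive in 1, against 7.36% and 10.9% of all pairs. The RM median of -0.27 became 0.01 with the A-share trend removed, where 8 were lower and 3 higher. ERG10, the first enzyme of the pathway, had 3408, 3679 and 3847 RPM in the hybrid, against 6217, 5957, 6107 and 6275 in the co-culture (log2 fold -0.74, SE 0.04). ERG25, a sterol methyl oxidase, had 1480, 1778 and 2026 in the hybrid, against 3011, 2927, 2990 and 2996 in the co-culture (log2 fold -0.74, SE 0.05), with a BY change of 0.38. ERG3, the sterol desaturase, changed by -0.65 (SE 0.06) in RM and 0.06 in BY. ERG28, a scaffold of the pathway, had the widest gap between alleles, at -0.04 in RM (not passed) and 1.53 in BY. The sterol element TCGTATA was found within 300 bases before 4 of 23 genes and 4.601% of all genes.

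OLE1, the desaturase that makes unsaturated fatty acids, showed the opposite moves most plainly. It had 1667, 1873 and 2145 RPM in the hybrid, against 4451, 4167, 4107 and 4286 in the co-culture (log2 fold -1.16, SE 0.05), with no overlap. Its BY allele averaged 4211 ± 202 in the hybrid, against 2018 ± 99.8 in the co-culture (log2 fold 1.06, SE 0.05), so the RM change minus the BY change was -2.21 (SE 0.05, edgeR adjusted p = 1.13e-156). HMX1, the heme oxygenase, changed by -1.36 in RM (SE 0.22) and 1.75 in BY (SE 0.34). The levels of HMX1 were low, at 41.4 ± 7.16 RPM in the hybrid, against 103 ± 29.5 in the co-culture. PHD1, a regulator of filamentous growth, had only 12 RM reads in the hybrid, against 57 in the co-culture and was not tested in RM. Its difference between alleles was -2.21 (SE 0.54).

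**Figure D3:**
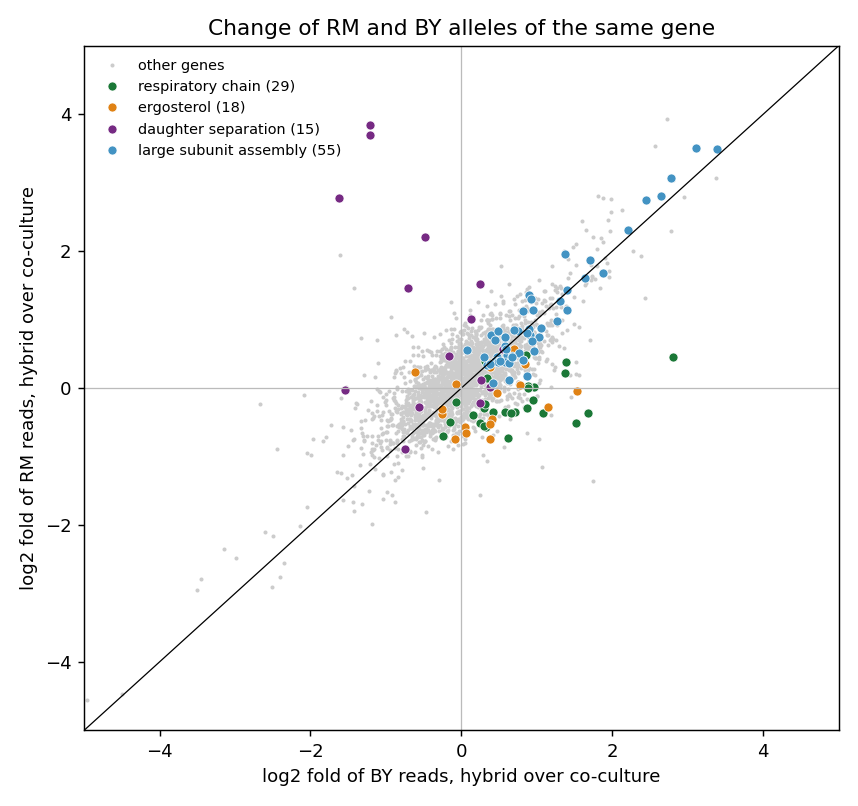
Each of 2675 genes is drawn at the log2 fold of its BY reads (x) and of its RM reads (y), hybrid over co-culture, with 6 genes outside the axes of ±5. Grey lines mark 0 and the black line marks equal change. Respiratory (green) and sterol (orange) genes lie mostly below the line, and large-subunit assembly genes (blue) lie along it. Of the daughter-separation genes (purple), DSE1, DSE2, CTS1, SCW11, DSE4 and EGT2 lie at upper left, EGT2 close to 0.

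Over all 3218 gene pairs tested for a difference between the RM and the BY change, 589 (18.3%) passed. The difference, RM minus BY, was positive in 352 (10.9%) and negative in 237 (7.36%), and 134 differed by over 2-fold. Its sign does not say which allele changed by the larger amount. With TMM scaling the split was 205 positive and 353 negative. These RM and BY changes share their libraries, so the p-values of a difference measure only how the split between alleles varied from library to library. QDR2, a multidrug exporter, had 154, 190.5 and 254 RPM in the hybrid, against 40.7, 63.6, 36.1 and 46.4 in the co-culture (log2 fold 1.95, SE 0.18), while BY changed by -1.61 (SE 0.11). BAT2, the cytosolic aminotransferase of branched-chain amino acids, had 221, 297 and 519 in the hybrid, against 130.2, 102, 106 and 122 in the co-culture (log2 fold 1.46, SE 0.14), while BY changed by -1.42 (SE 0.10). In QDR2 and BAT2 the alleles again moved in opposite directions. GAS2, a glucan transferase, had 19.6, 43.5 and 59.6 RPM in the hybrid, against 24.4, 49.9, 55.2 and 54.8 in the co-culture, overlapping levels that did not pass (-0.24, SE 0.26), whereas BY changed by -2.67 (SE 0.09). HSP26, a small heat shock protein, changed by -4.29 in BY and had an RM minus BY difference of 3.31 (SE 0.59), with too few RM reads for a test of RM alone.

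Genes that build ribosomes rose. Before a ribosome works, assembly factors in the nucleolus fold, cut and modify its RNA, and these genes are known to be switched together with growth. Of 55 tested assembly factors of the large subunit, 49 rose, 0 fell and 6 did not pass, with a median log2 fold of 0.75. Of 46 tested factors of the small subunit, 37 rose, 1 fell and 8 did not pass, with a median of 0.61. All tested genes had a median of 0.16 and 34.1% of them rose. Members such as NOP16, PXR1, RRP14 and RRP36 passed the read minimum only through their hybrid reads, so these counts only describe the lists. TMM scaling called 45 of the large-subunit and 29 of the small-subunit factors higher, with 0 and 1 lower. These coding sequences are A-rich, at a median of 34.94% and 34.86% A against 32.57% over tested genes. With the A-share trend removed, 32 and 22 were called higher, with medians of 0.39 and 0.30, and 0 and 1 lower.

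Several of these genes rose many-fold. EBP2, a large-subunit factor, had 461, 546 and 568 RPM in the hybrid, against 24.4, 49.9, 51 and 42.1 in the co-culture (log2 fold 3.50, SE 0.14, edgeR adjusted p = 2.38e-43). NOP16, of the same subunit, had 143, 164 and 209 in the hybrid, against 8.14, 13.8, 23.4 and 4.21 in the co-culture (log2 fold 3.50, SE 0.25). SAS10, of the small-subunit processome, had 340.1, 419 and 449.6 in the hybrid, against 65.1, 44.7, 55.2 and 46.4 in the co-culture (log2 fold 3.05, SE 0.15). No replicate overlapped between groups in these genes. RRP36 and PXR1, which act in RNA cleavage, both changed by 3.07 (SE 0.19 and 0.18). With the A-share trend removed the values were 2.44 for EBP2, 2.49 for NOP16, 2.35 for SAS10, 1.95 for RRP36 and 2.09 for PXR1. RRP14 had 91 RM reads in the hybrid, against 1 in the co-culture, higher by a depth-scaled ratio of 101.1 (exact 95% interval 17.7 to 4038). It is named after its values were seen, since its reads are below the level set for naming.

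Other factors rose as well. UTP14, of the processome, had 671, 723 and 842 RPM in the hybrid, against 65.1, 117, 104 and 109.6 in the co-culture (log2 fold 2.79, SE 0.11). CBF5, the pseudouridine synthase of ribosomal RNA, had 1793, 2065 and 2251 in the hybrid, against 578, 538, 652 and 577 in the co-culture (log2 fold 1.80, SE 0.07). NOP4 and RPF2, of the large subunit, rose by 1.86 (SE 0.09) and 1.44 (SE 0.07). The BY alleles rose by similar amounts, at 3.11 for EBP2, 2.81 for SAS10 and 1.72 for CBF5. A difference between the alleles passed in 4 of 57 large-subunit pairs and in 6 of 47 small-subunit pairs, against 18.3% of all pairs. With TMM scaling it was negative in 8 and positive in 1 of the large-subunit pairs, and negative in 11 of the small-subunit pairs. BUG1, a Golgi protein, was among the 8 largest rises under the naming rule without being a gene of ribosomes or daughter separation. It had 176, 244 and 316 in the hybrid, against 16.3, 20.6, 21.2 and 21.1 in the co-culture (log2 fold 3.53, SE 0.21). With the A-share trend removed its value was 2.31.

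The stretches upstream of EBP2 and SAS10 are shown because they carry both elements known from ribosome assembly genes. Capitals mark the PAC element GATGAG and the RRPE core AAATTTT, on either strand. Overlapping matches run together as longer capitals. PAC lies within 300 bases before the start codon in 51 of 59 large-subunit genes, 47 of 50 small-subunit genes and 19.09% of all protein-coding genes. RRPE lies there in 56 of 59, 47 of 50 and 24.37%. The EBP2 stretch runs from base 155 to base 56 before the start codon and that of SAS10 from base 169 to base 70, in R64 and on the strand of the gene.
EBP2: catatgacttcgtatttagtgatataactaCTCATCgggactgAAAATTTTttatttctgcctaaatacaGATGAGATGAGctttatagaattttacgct
SAS10: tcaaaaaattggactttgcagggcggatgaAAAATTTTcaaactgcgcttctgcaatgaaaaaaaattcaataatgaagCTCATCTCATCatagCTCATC

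RNA polymerases I and III, which transcribe ribosomal and transfer RNA genes, had 8 of 14 tested genes higher and none lower, against 34.1% and 19.1% of all tested genes. Among the higher calls RRN3 is an initiation factor of polymerase I and not a subunit (0.34). RPA34, a subunit of polymerase I, had 1243, 1425 and 1562 RPM in the hybrid, against 431, 327, 336 and 349.8 in the co-culture (log2 fold 2.03, SE 0.08). RPC53 of polymerase III rose by 1.46 (SE 0.12), and RPA43 of polymerase I by 0.88 (SE 0.12). With TMM scaling 6 were higher and 1 lower, and with the A-share trend removed 5 were higher and 2 lower. PAC lies before 13 of 16 of these genes.

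Many ribosomal proteins rose too. Of 36 tested large-subunit proteins, 28 rose, 3 fell and 5 did not pass (median log2 fold 0.47). Of 21 small-subunit proteins 11 rose, 4 fell and 6 did not pass (median 0.42). Among all tested genes 34.1% rose and 19.1% fell, with a median of 0.16. RPL3 averaged 11250 ± 350.2 RPM in the hybrid, against 8501 ± 171 in the co-culture (mean ± SD, n = 8 and n = 4), a log2 fold of 0.41 (SE 0.04). RPS9B averaged 5160 ± 124 in the hybrid, against 3486 ± 173 in the co-culture (0.58, SE 0.04). RPS28B went the other way, with 2983 ± 112 in the hybrid, against 4032 ± 149 in the co-culture (-0.44, SE 0.04), and did not pass with the A-share trend removed (-0.01). Among these genes 21 of the large-subunit and 14 of the small-subunit proteins have a near-identical copy in the genome, so reads may be split between copies. With TMM scaling the small-subunit count was 10 higher and 7 lower. With the A-share trend removed it was 16 higher and 1 lower, and the medians were 0.43 for the large and 0.39 for the small subunit, beside 0.39 and 0.30 for the assembly factors. The difference between proteins and assembly factors was not tested.

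Other genes of protein synthesis and turnover gave mixed calls, to be read beside 34.1% higher and 19.1% lower among all tested genes. Of 18 tested aminoacyl-tRNA synthetases, 13 rose, 0 fell and 5 did not pass, but with TMM scaling 4 were higher and 1 lower, and with the A-share trend removed 7 were higher. GRS1, the glycyl-tRNA synthetase, rose by 0.34 (SE 0.05), WRS1 by 0.46 (SE 0.07) and FRS1 by 0.34 (SE 0.07). Of 27 proteasome genes, 12 rose, 1 fell and 14 did not pass, where 34.1% of all tested genes rose. With TMM scaling 9 were higher, and with the A-share trend removed 5. The RM minus BY difference passed as positive in 10 of 27 and as negative in none, against 10.9% and 7.36% of all pairs. With TMM scaling it passed as positive in 5. SCL1, a core subunit, rose by 0.65 (SE 0.08) in RM with 0.33 in BY. Among 19 tested chaperones, 10 rose, 3 fell and 6 did not pass, and with TMM scaling 6 were higher and 4 lower. STI1, a cochaperone of Hsp90, had 2899, 3161 and 3321 RPM in the hybrid, against 1375, 1553, 1568 and 1707 in the co-culture (log2 fold 1.00, SE 0.05). SBA1, another Hsp90 cochaperone, rose by 1.05 (SE 0.06), and the Hsp40 gene YDJ1 by 0.77 (SE 0.07). Mitochondrial ribosome proteins gave 11 higher, 2 lower and 22 not passed of 35 (5 higher and 3 lower with TMM scaling), with a median of 0.30 that became -0.06 with the A-share trend removed, where 1 was higher and 6 lower.

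**Figure D4:**
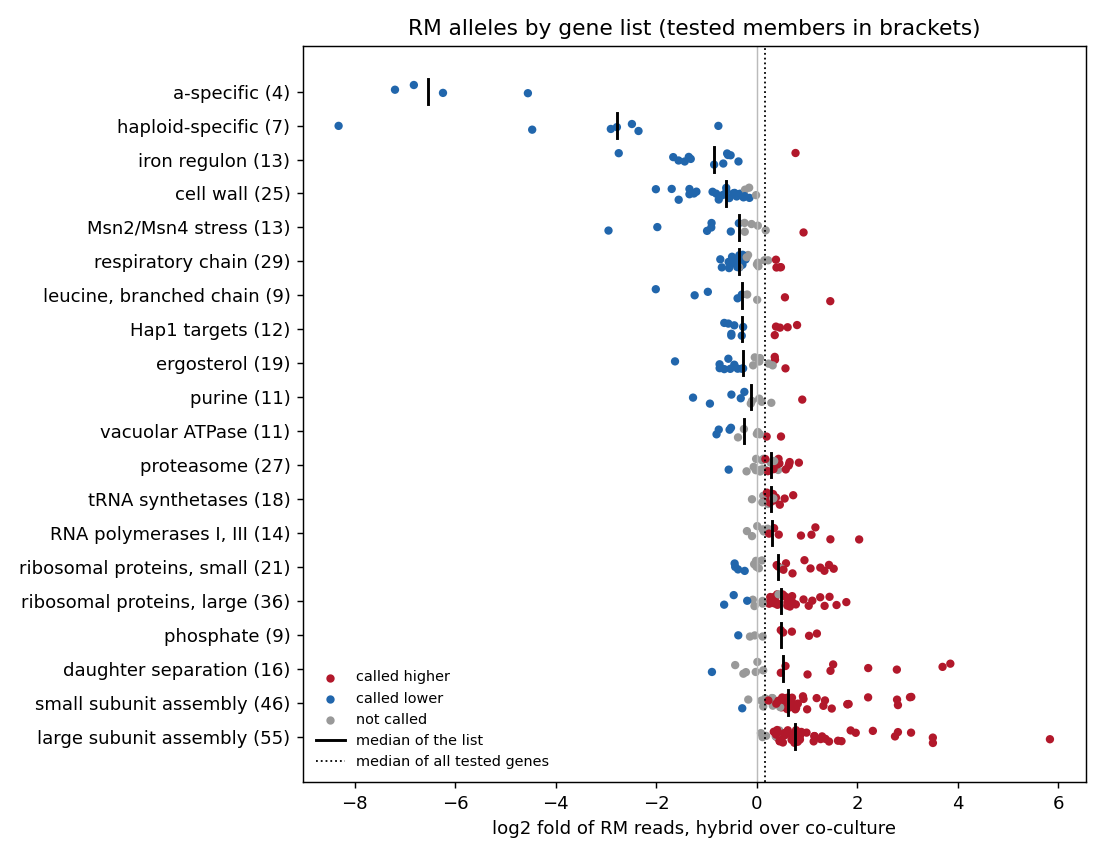
Log2 fold of RM reads, hybrid over co-culture, for the tested members of 20 gene lists, each dot a gene (red called higher, blue called lower, grey not called). Black bars are list medians and the dotted line is the median of all tested genes at 0.16. The a-specific median of -6.54 lies farthest left and the large-subunit assembly median of 0.75 farthest right, while the vertical scatter within a row has no meaning.

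Iron uptake genes fell. In yeast, Aft1 and Aft2 turn on the genes that bring iron into the cell. Of 13 tested genes 12 fell and 1 rose, against 19.1% and 34.1% of all tested genes. The median log2 fold of the list was -0.85, and TMM scaling gave the same counts. Members low in the hybrid may have passed the read minimum through the co-culture alone, so the counts only describe the list. The A-share is low here, at a median of 28.31%, and 10 were lower and 0 higher with the trend removed. FET3, the multicopper oxidase of high-affinity iron uptake, had 285, 340.4 and 387 RPM in the hybrid, against 993, 1097, 1071 and 1201 in the co-culture (log2 fold -1.67, SE 0.08, edgeR adjusted p = 9.11e-37). SIT1, a siderophore transporter, had 230, 276 and 411 in the hybrid, against 773, 757, 786 and 822 in the co-culture (log2 fold -1.44, SE 0.09). The groups did not overlap in either gene, and the BY alleles changed by -1.44 and -1.43. Over the list, the RM minus BY difference passed as negative in 5 of 13 pairs and as positive in 0, against 7.36% and 10.9% of all pairs. FRE2, a reductase of iron and copper, fell by 2.75 in RM (SE 0.17), with 45.7 ± 19.1 RPM in the hybrid, against 302 ± 19.8 in the co-culture. Its BY allele averaged 36.9 ± 16.1 in the hybrid, against 48.4 ± 9.31 in the co-culture, so the difference between alleles was -2.34 (SE 0.35). The exception in the list was AFT1, the activator itself, at 0.77.

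The stretch upstream of FET3 is shown for its Aft1 core TGCACCC, in capitals, from base 281 to base 182 before the start codon in R64, on the strand of the gene. That core lies within 300 bases before the start codon, on either strand, in 9 of 18 iron genes and in 1.329% of all protein-coding genes.
FET3: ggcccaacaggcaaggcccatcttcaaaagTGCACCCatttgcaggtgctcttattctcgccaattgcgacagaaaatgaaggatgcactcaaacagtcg

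Of 5 tested copper genes 3 were lower and 0 higher, against 19.1% and 34.1% of all tested genes. With the A-share trend removed, 1 copper gene was lower. CTR1, the copper transporter of the plasma membrane, had 345, 381 and 420.3 RPM in the hybrid, against 586, 545, 521 and 565 in the co-culture (log2 fold -0.50, SE 0.09), with a BY change of 0.27. CTR2, the vacuolar copper transporter, fell by 0.63 (SE 0.23, edgeR adjusted p = 0.0185), with overlapping levels. It did not pass without hybrid replicate 8 (adjusted p = 0.156) or without co-culture replicate 3 (adjusted p = 0.137). SOD1, the copper and zinc superoxide dismutase, fell by 0.37 (SE 0.05) but stood at 0.06 with the A-share trend removed.

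Several phosphate genes rose in RM and fell in BY. Of 9 tested, 5 rose, 1 fell and 3 did not pass, where 34.1% of all tested genes rose and 19.1% fell. Of 8 BY alleles 1 rose and 5 fell. The RM minus BY difference passed as positive in 5 of 12 and as negative in none, against 10.9% and 7.36% of all pairs. PHO84, the high-affinity phosphate transporter, had 1191, 1465 and 1655 RPM in the hybrid, against 757, 654, 733 and 742 in the co-culture (log2 fold 1.04, SE 0.07). Its BY allele averaged 1417 ± 98 in the hybrid, against 2715 ± 108 in the co-culture, and the RM minus BY difference was 1.98 (SE 0.07, edgeR adjusted p = 2.35e-95). VTC3, of the polyphosphate synthase, changed by 0.70 in RM (SE 0.06) and -1.11 in BY (SE 0.05). PHO81, the inhibitor of the Pho85 kinase, changed by 0.52 in RM (SE 0.08) and -0.12 in BY, and did not pass in RM with the A-share trend removed (0.16). The rises thus included transport, storage and signalling genes, and with that trend removed 3 were called higher and 0 lower.

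Cell wall genes fell almost throughout, with 22 of 25 tested lower, 0 higher and 3 not passed (median log2 fold -0.61). Of all tested genes, 19.1% were lower and 34.1% higher. Cell wall genes have the lowest median A share of the lists, 26.74%, and 14 were lower and 2 higher with the trend removed. The RM minus BY difference passed as negative in 13 of 24 pairs and as positive in 2, against 7.36% and 10.9% of all pairs. CWP2, a mannoprotein of the wall, had 318, 582 and 705 RPM in the hybrid, against 1701, 1890, 2006 and 1816 in the co-culture (log2 fold -1.70, SE 0.07), with a BY change of -1.32. CWP1, its relative, had 1102, 1276 and 1495 in the hybrid, against 3328, 3625, 4177 and 3784 in the co-culture (log2 fold -1.56, SE 0.05). For CWP1 the BY allele rose by 0.24, with 538 ± 51.6 BY RPM in the hybrid, against 437 ± 88.1 in the co-culture. SCW10, a glucanase of the wall, fell by 1.25 (SE 0.06). The catalytic glucan synthase gene FKS1 fell by only 0.34, and its stress-linked partner GSC2 by 0.45.

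General stress genes under Msn2 and Msn4 were mostly too low to test, with 13 of 30 tested. Of these, 7 fell, 1 rose and 5 did not pass, where 19.1% of all tested genes fell and 34.1% rose. HSP12, a membrane-protecting stress protein, had 0, 9.71 and 19.9 RPM in the hybrid, against 97.6, 68.8, 68 and 101 in the co-culture (log2 fold -2.95, SE 0.35). HSP12 passed the read minimum only through its co-culture reads, so the counts only describe the list. YGP1, a secreted starvation glycoprotein, fell by 1.98 (SE 0.25), and PNC1, the nicotinamidase, by 0.91 (SE 0.13). With the A-share trend removed 7 were lower and 0 higher. The stress element AGGGG lies within 300 bases before 19 of 30 of these genes, on either strand, and 22.16% of all genes. PCK1, the gluconeogenic carboxykinase, is outside the list but had 1 of the 8 largest falls, with 0, 1.46 and 19.2 in the hybrid, against 73.2, 127, 142 and 126 in the co-culture (log2 fold -4.59, SE 0.36).

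Amino acid genes did not move as a block. In leucine, isoleucine and valine synthesis 5 fell, 2 rose and 2 did not pass of 9, where 19.1% of all tested genes fell and 34.1% rose. With the A-share trend removed, 3 of the 9 were lower and 1 higher. LEU1, the isopropylmalate isomerase, had 259, 299 and 369 RPM in the hybrid, against 1286, 1212, 1256 and 1235 in the co-culture (log2 fold -2.01, SE 0.08), with a BY change of -2.15. BAT1, the mitochondrial aminotransferase, fell by 0.98 (SE 0.06), and OAC1, a mitochondrial carrier, by 1.24 (SE 0.10). BAT2, the cytosolic partner of BAT1, had risen as given above. Of 6 tested genes of the histidine list, 4 rose and 0 fell, against 34.1% and 19.1% of all tested genes. These were the synthesis genes HIS1, HIS6 and HIS7 and the regulator GCN4, and TMM scaling called 2 higher, with HIS6 at 1.13 (SE 0.23) and HIS7 at 1.09 (SE 0.30). HIS6 and HIS7 passed the read minimum only through their hybrid reads. Arginine genes gave 2 higher, 2 lower and 3 not passed of 7, with CAR2, an enzyme of arginine breakdown, at -1.64 (SE 0.17) and CPA1, of arginine synthesis, at 0.55 (SE 0.09). The Gcn4 core TGACTC lies within 300 bases before 9 of 9 arginine and 5 of 6 histidine genes, on either strand, and 7.741% of all genes. It lies there in 6 of 10 leucine and branched-chain genes and in 2 of 5 lysine genes.

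Most sulfur and aromatic amino acid genes did not pass. For methionine, cysteine and sulfate, 3 rose, 1 fell and 10 did not pass of 14, and with TMM scaling 2 were higher and 5 lower, whereas with the A-share trend removed 6 were higher and 0 lower. CYS4, the cystathionine beta-synthase, had 3354, 3506 and 3872 RPM in the hybrid, against 1969, 2021, 2057 and 1939 in the co-culture (log2 fold 0.81, SE 0.05). Aromatic synthesis gave 3 higher, 1 lower and 7 not passed of 11, of which TMM scaling called 1 higher and 1 lower, with ARO3 at 0.86 (SE 0.22). URA1, the dihydroorotate dehydrogenase, had 6374, 6523 and 6928 in the hybrid, against 3654, 3766, 3878 and 3978 in the co-culture (log2 fold 0.78, SE 0.04), and URA4 rose by 0.79 (SE 0.05), while URA5 fell by 0.36 (SE 0.07). ADE17, of the last steps of purine synthesis, had 153, 199.7 and 246 in the hybrid, against 472, 468, 495 and 502 in the co-culture (log2 fold -1.27, SE 0.11). Of 11 purine genes 5 fell, 1 rose and 5 did not pass, where 19.1% of all tested genes fell and 34.1% rose. The purine rise was in BAS1, an activator of the pathway, at 0.90 (SE 0.16), which did not pass with the A-share trend removed (0.36).

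Carbon metabolism showed mixed changes. Of 8 tested genes of glycolysis and fermentation, 3 rose, 4 fell and 1 did not pass, and with the A-share trend removed 3 were higher and 1 lower. PGI1, the glucose phosphate isomerase, had 9879, 10210 and 11940 RPM in the hybrid, against 17670, 17990, 18740 and 18370 in the co-culture (log2 fold -0.79, SE 0.04). HXK2, the main hexokinase, rose by 0.34 (SE 0.05), and TPI1 fell by 0.35 (SE 0.05) but was at -0.01 with the A-share trend removed. Among 7 glucose sensing and transport genes, 4 rose and 0 fell, all 4 of them regulators, with the repressors MIG2 and MIG3 at 1.41 (SE 0.29) and 1.27 (SE 0.22). The tricarboxylic acid cycle gave 3 higher and 3 lower of 11, with MDH2, the cytosolic malate dehydrogenase, at 1.27 (SE 0.15). The vacuolar proton pump gave 4 lower and 2 higher of 11, against 19.1% and 34.1% of all tested genes, and 5 lower and 0 higher with TMM scaling. Its membrane subunit VPH1 had 2151, 2535 and 2730 in the hybrid, against 4231, 4392, 4086 and 4294 in the co-culture (log2 fold -0.76, SE 0.05), and VMA3 changed by -0.54, which turned to 0.27 with the A-share trend removed.

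Cell cycle and budding genes gave mixed calls. Of 16 tested cyclins and regulators, 4 rose, 2 fell and 10 did not pass, where 34.1% of all tested genes rose and 19.1% fell. With TMM scaling 2 were higher and 3 lower. HSL1, a kinase of the morphogenesis checkpoint, had 336, 458 and 661 RPM in the hybrid, against 846, 846, 756 and 818 in the co-culture (log2 fold -0.86, SE 0.09), while its BY allele rose by 0.57 (SE 0.07). SIC1, the inhibitor of the B-type cyclin kinase, rose by 1.03 with -0.08 in BY. AXL2, the landmark of axial budding, which is the pattern of haploid cells, had 67.2, 123 and 146 in the hybrid, against 374, 349, 351 and 358 in the co-culture (log2 fold -1.62, SE 0.13). Another axial gene, BUD3, fell by 0.77, whereas BUD4 rose by 0.30. The myosin gene MYO1 rose by 0.89 (SE 0.11) but was at 0.03 with the A-share trend removed, and the septin gene CDC3 rose by 0.51 but was at -0.04. IME4, which promotes meiosis in diploids and is known to have an antisense RNA in haploids, fell by 1.11 (SE 0.14), with 89.4, 112 and 126 in the hybrid, against 301, 254, 225 and 223 in the co-culture. No strand is stated for the counting, so reads of IME4 and of its antisense RNA cannot be told apart.

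Regulators known to carry functional differences between BY and RM gave 5 higher, 5 lower and 8 not passed of 18. Among all tested genes 34.1% were higher and 19.1% lower. With the A-share trend removed, 2 of these regulators were higher and 6 lower. GPA1, AMN1, HSL1 and PHO84 are described above. IRA2, a brake on Ras signalling, fell by 0.47 with -0.54 in BY, and MKT1 stood at 0.02 and did not pass. For these 18 pairs the RM minus BY difference passed as positive in 4 and as negative in 3, where 18.3% of all pairs passed.

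Across genes, the changes went with base composition. Over 2802 tested genes with a matched sequence, the log2 fold of RM reads correlated with the percentage of A at Spearman's rho = 0.549, a description across genes that share the same libraries. In the 702 genes with the least A (17.39 to 30.13%) the median log2 fold was -0.26, with 86 higher and 323 lower. The next 699 genes had a median of 0.06 and the 700 after them 0.28. In the 701 genes with the most A (34.69 to 45.41%) the median was 0.49, with 408 higher and 28 lower. The BY reads had a rho of 0.448 over 2663 genes. Among replicates of a group the trend was weak, since the deviation of a replicate from its group mean had a rho of -0.15 to 0.128 in the hybrid and -0.057 to 0.074 in the co-culture. With the trend removed from each replicate, 1095 of 2802 genes were called, 532 higher and 563 lower. Of the genes called with RM totals 845 were among them, 824 in the same direction. The trend's part in each list was not tested beyond the values given beside it.

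**Figure D5:**
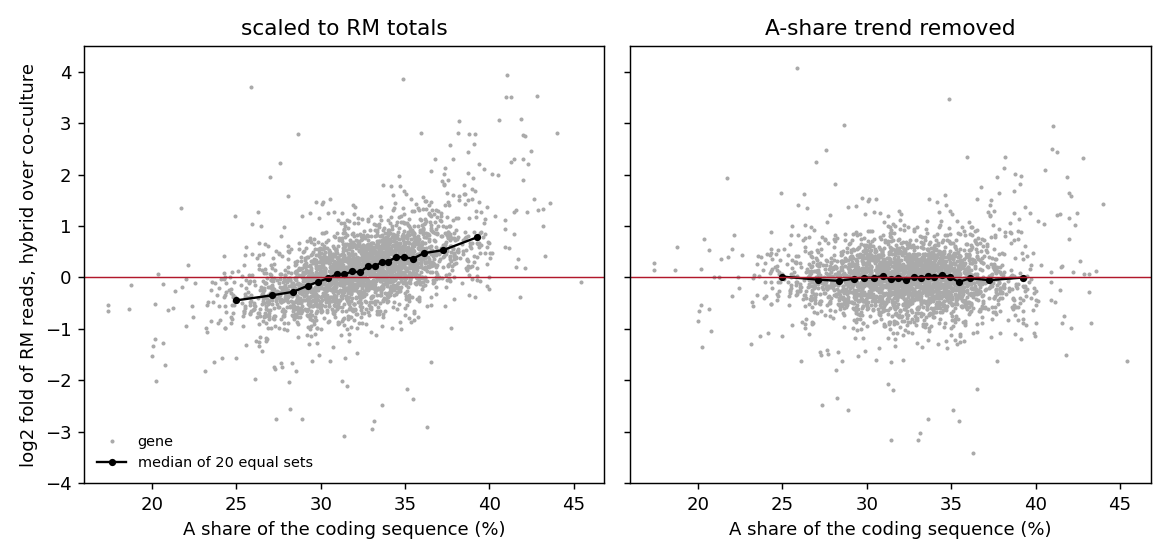
Log2 fold of RM reads, hybrid over co-culture, against the A share of the coding sequence, each dot a gene, scaled to RM totals (left) and with the A-share trend removed (right), with 9 genes outside the axis. The black line joins the medians of 20 sets of equal size and runs from -0.45 in the set with the least A to 0.78 in that with the most on the left, and stays near 0 on the right.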

How the data were processed

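Messenger RNA was measured by sequencing of cDNA in 12 libraries of a BY by RM hybrid and 12 of a BY and RM co-culture. The authors deposited, per the file headers, raw counts of reads per gene pair over sites that differ between the strains, separately for the BY and the RM allele. The values were whole numbers whose totals differed between libraries, and no normalisation is stated. An aligner, genome build or read filter was not given in the sources used here, and coordinates are therefore left out. Of 4442 gene pairs, 4325 matched a locus of RefSeq's S. cerevisiae R64 assembly, which supplied names, coding sequences and the 300 bases before each start codon, and 117 did not match.

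Within a group, libraries were summed by complete linkage where the counts of both alleles agreed within sampling noise (chi-square p of at least 0.05 over gene pairs with 20 or more reads between them, where other library pairs of the group had p under 0.001). In the hybrid, libraries 3 and 6, libraries 7 and 8, and libraries 10, 11 and 12 were summed and the rest stood alone. In the co-culture, libraries 2 to 6, libraries 7, 8, 10 and 11, and libraries 9 and 12 were summed. The labels do not tie libraries to the 4 cultures of a group.

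RM counts were tested by the quasi-likelihood method of edgeR 4.0.16 (R 4.3.3), hybrid minus co-culture, with the RM column total as library size and no further scaling, on genes whose mean reached 5 RM reads per library in at least 1 group. The difference between the RM and the BY change came from 1 joint edgeR fit over both alleles, blocked by summed library, for pairs with at least 60 reads of each allele. Benjamini-Hochberg adjustment ran over all genes tested. The SE of a log2 fold is its size divided by the square root of the F of its test, not the SE of a fitted coefficient. Levels (RPM, reads scaled to 1000000 RM reads of the replicate) have the SD over 8 hybrid and 4 co-culture replicates. The common dispersion was 0.00152 for RM counts and 9.77e-05 for the joint fit over both alleles. A group count of 0 was set to 3 reads to give a bound, and ratios with 1 to 3 reads have exact 95% intervals for counting error only.

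Gene lists, 39 in number, and the comparison itself were chosen with earlier results of these data known. Genes are named by a rule: the 8 largest called changes in each direction with at least 10 RM reads per library and no overlap between groups, the tested a-specific, haploid-specific and strain marker genes, the 3 members with the smallest p of lists with at least 5 tested members of which most were called, otherwise 1 member, and the 8 largest differences between alleles in each direction. Other members of the lists are given by their fold, and genes outside rule and lists are said to be so. Near-identical copies (44 of the tested genes, at least 90% identity over at least 50% of the sequence) and overlapping genes (40) may share reads. Motifs were searched as exact letters. The tests were checked on simulated counts. Alternatives were TMM scaling, DESeq2 size factors, the DESeq2 1.42.0 test, no filter or a mean of at least 10 reads, unsummed libraries with and without a replicate block, sums from RM reads alone, removal of the A-share trend (lowess offsets, span 0.5), and leaving out each replicate.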

Additional observations from a re-analysis of the deposited data

Results flagged for a closer look

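Among 230 groups of named-gene levels examined, 15 had a replicate far from the others, 13 among hybrid and 2 among co-culture levels, where chance alone gives about 1 in 20. All values are RPM of RM alleles.

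In hybrid replicate 7, RPP1A stood at 5638 (others 4695 to 5083), HIS6 at 156.6 (others 61.5 to 101.1), RIP1 at 411.1 (others 246 to 316.2) and BAT2 at 518.8 (others 220.6 to 307.5). Hybrid replicate 1 was high for FAR1 at 238.3 (others 109.8 to 165.5), CPA1 at 744.7 (others 505.6 to 601.2) and MYO1 at 526.2 (others 358.5 to 425.7). Hybrid replicate 2 was low for SAS10 at 340.1 (others 399.8 to 449.6) and STD1 at 248.2 (others 345 to 412). Hybrid replicate 4 was low for WRS1 at 697 (others 833.6 to 928.2) and high for ARG8 at 348.5 (others 220.6 to 274.1). Hybrid replicate 5 was high for CDC42 at 316.2 (others 172.5 to 234.9) and HSL1 at 661.2 (others 336 to 487.2).

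In the co-culture, replicate 1 was low for BUG1 at 16.3 (others 20.6 to 21.3), and replicate 3 was high for PRM5 at 65.9 (others 48.8 to 51.6). Hybrid replicate 7, which is library 9, gave 4 of the 15 values. None of these genes lost its call when any 1 replicate was left out.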

How the results depend on the processing

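The count of 1497 genes with changed RM reads ranged from 1095 with the A-share trend removed to 1598 with no filter on low counts, and the DESeq2 test gave 1197 (760 higher and 437 lower). TMM scaling, DESeq2 size factors, a mean of at least 10 reads and sums from RM reads alone gave 1368, 1388, 1269 and 1488. The 12 unsummed libraries gave 1539. Leaving out each summed replicate gave 1329 to 1481 genes, 361 to 389 called list members (390 in all), 102 to 104 called named genes (103 in all) and 428 to 592 differences between alleles (589 in all). Of the alternatives to named genes, 3 turned a direction, all with the A-share trend removed, at 0.062 for SOD1, -0.040 for CDC3 and 0.27 for VMA3, and the cause beyond that removal was not tested. Another 16 values for 10 genes no longer passed, 9 of them with the A-share trend removed. The library numbers in the titles did not pair the groups: over 1914 genes, deviations of same-numbered libraries correlated at -0.0352 to 0.0671, and 2 of 12 hybrid libraries correlated best with their own number. With the library number as a replicate block the counts were 1539 genes (986 higher and 553 lower) and 563 differences between alleles, and no named gene changed its call. The median gene pair had 92 RM reads over the hybrid group and 88.5 over the co-culture group, so small differences may have been missed at this depth. Gene pairs below the read minimum were not tested, whatever the size of their difference.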

Other observations

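Read counts over a group set apart 2 further genes that were too low to test and were singled out after their values were seen. KAR4, a transcription factor of mating and nuclear fusion, had 1 RM read in the hybrid, against 31 in the co-culture, lower by a depth-scaled ratio of 27.9 (exact 95% interval 4.65 to 1137). FYV7, a factor of ribosomal RNA processing, had 32 RM reads in the hybrid, against 2 in the co-culture, 17.8-fold higher (exact 95% interval 4.54 to 153.2).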
